A study of Arabidopsis thaliana with 6 samples.

Results

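DUF295 genes encode plant proteins that share a domain of unknown function, and 4 of them were silent in wild-type Arabidopsis roots and transcribed in roots of the xal1-2 mutant. They are AT5G52940, AT5G52930, AT5G54560 and AT4G25930, out of 32833 genes in the deposited table. They were chosen on these measurements, as DUF295 genes with reads in the mutant and none in any wild-type library, so their difference between genotypes is given as a description with no test. The tested genotype was xal1-2, a loss-of-function mutant of XAL1 (XAANTAL1, AT1G71692), which encodes a MADS-box transcription factor, and the comparison was with wild-type Col-0 (WT). Per the labels both genotypes had the Col-0 background and the same medium, with 3 biological replicates each. Each replicate pooled roots of about 60 plants at 8 days after sowing, hypocotyls and cotyledons excluded. The series asks which genes differ in the short roots of this mutant, which is represented here by a single allele.

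The DUF295 family is large in Arabidopsis, and many of its products carry no other recognised domain, while others begin with an F-box, the segment that ties a protein to ubiquitin ligases. Several of the proteins without an F-box are known to enter mitochondria or chloroplasts, and genes of that branch are known to respond when mitochondrial function is disturbed. Signals that pass from failing mitochondria to the nucleus, called retrograde signals, are carried in Arabidopsis by NAC transcription factors such as ANAC013 and ANAC017, which bind the mitochondrial dysfunction motif. The biochemical role of the 4 products is not known, and the reference annotation lists all 4 as hypothetical proteins. It places the product of AT5G52940 in the mitochondrion.

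The mitochondrial dysfunction motif was searched on both strands, with no other motif searched, and it occurred within 300 bases before the coding start of all 4 genes. The matches are shown because all 4 genes hold one in this window, a window chosen after another had been searched. Capitals mark the 13 bases of the match, with 8 bases on either side, read 5′ to 3′ on the gene's own strand from the TAIR10.1 reference (RefSeq). All 4 genes lie on the plus strand, and AT5G54550, a relative described with the results, is added for comparison. The windows are chr5:21472137-21472165 for AT5G52940, chr5:21470235-21470263 for AT5G52930, chr5:22161030-22161058 for AT5G54560, chr4:13168041-13168069 for AT4G25930 and chr5:22158298-22158326 for AT5G54550.
AT5G52940: tggaaagcCTTGGTGGGCAAGgccattcc
AT5G52930: tccaaagaCTTGGTGGGCACGgtgatacc
AT5G54560: atggaagaCTTGGTGGGCAAGgccattcc
AT4G25930: attgtgaaCTTGGTGCCCAAGgccatctc
AT5G54550: attgaagaCTTGGTGGGCAAGgccattgc

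The 13 letters were the same in AT5G52940, AT5G54560 and AT5G54550, and in each gene but AT5G52930 they match the motif on both strands. The same 13 letters also precede the coding start of AT5G53230 and AT5G53240. AT5G53230 had 2 reads in xal1-2 and 1 in WT, and AT5G53240 had 4 in xal1-2 and 0 in WT. The first base of the match lay 156 bases before the coding start in AT5G52940, 127 in AT5G52930, 96 in AT5G54560 and 78 in AT4G25930. In AT5G52940 and AT5G54560 the match falls inside the annotated transcript, beyond the annotated gene start, and in the other 2 it lies upstream of it. The annotation gives AT4G25930 no transcribed bases before its coding start, so whether its match is transcribed is not known. The 250 bases before the annotated start of those other two genes are shown in full, with the match in capitals, chr5:21470049-21470298 for AT5G52930 and chr4:13167877-13168126 for AT4G25930, both on the plus strand of TAIR10.1.
AT5G52930: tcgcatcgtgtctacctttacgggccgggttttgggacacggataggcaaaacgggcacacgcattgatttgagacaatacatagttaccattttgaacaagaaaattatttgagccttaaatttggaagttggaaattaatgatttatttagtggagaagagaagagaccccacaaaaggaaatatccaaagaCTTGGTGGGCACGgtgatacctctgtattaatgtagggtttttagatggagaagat
AT4G25930: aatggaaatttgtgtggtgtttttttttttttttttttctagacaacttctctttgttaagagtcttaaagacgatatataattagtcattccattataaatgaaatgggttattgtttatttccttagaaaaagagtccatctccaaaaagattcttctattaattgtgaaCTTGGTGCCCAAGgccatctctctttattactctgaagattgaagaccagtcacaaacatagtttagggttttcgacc

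Among the other DUF295 genes, 13 of 65 (20%) held the motif within 300 bases before the coding start, against 619 of all 27444 protein-coding genes of the table (2.26%). Of the 65, 25 carry no F-box text in the annotation, like the 4 genes, and 10 of these 25 held the motif in that window. In 250 bases before the annotated gene start, the share was 2 of the 4 genes, 9 of the 65 others (13.8%) and 481 of the 27444 (1.75%). In 1000 bases before that start, it was 2 of the 4 genes, 14 of the 65 others (21.5%) and 2087 of the 27444 (7.6%). The window before the coding start was chosen after the window before the gene start had been searched. A match describes letters in these windows, not a bound site.

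**Figure D1:**
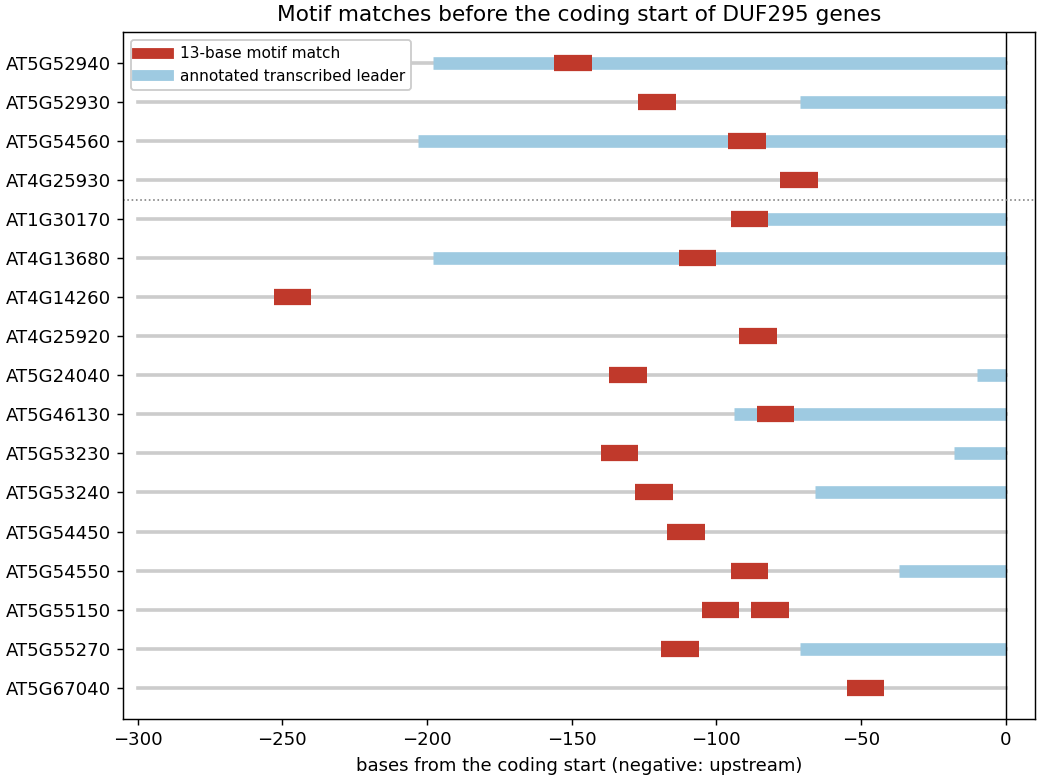
Matches to the mitochondrial dysfunction motif (red) in the 300 bases before the coding start of DUF295 genes, with the annotated transcribed leader in blue; the horizontal axis is the distance in bases from the coding start. The 4 genes described here stand above the dotted line with first bases 156, 127, 96 and 78 bases upstream, and the 13 other DUF295 genes with a match stand below it.

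XAL1 itself, the check of the genotype labels, had 76.47, 102.03 and 103.24 scaled counts in xal1-2 replicates 1 to 3 and 263.8, 250.14 and 268.69 in WT replicates 1 to 3. A scaled count is the number of reads of a gene divided by a size factor for its library. XAL1 fell in the mutant (limma log2 fold change -1.48 ± 0.14 SE, adjusted p = 0.00034), and transcript of the locus was still detected. Libraries held 6978879 to 9247089 reads assigned to genes. All 10 root cell type markers had reads in every library, with summed scaled counts of 3452 to 3958 in xal1-2 and 3895 to 4733 in WT, and 1 of them, the endodermal gene CASP1, fell. Markers of green tissue, 6 genes, were present in both genotypes, with sums of 1472 to 2637 in xal1-2 and 1851 to 2700 in WT and none called, and the pollen gene VGD1 was at 0 throughout. These are bulk samples, in which fewer cells of a type and less RNA per cell cannot be told apart.

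AT5G52940 was the most abundant of the 4 genes. It had 50, 131 and 95 reads in xal1-2 replicates 1, 2 and 3, and 0 reads in each of the 3 WT libraries. In scaled counts that is 57.07, 116.23 and 83.83 in xal1-2, a mean of 85.7 ± 29.6 (SD, n = 3). Every mutant library had reads and no WT library had any, so the groups did not overlap. Taking 3 reads as the one-sided limit that a count of 0 allows, the floor is 3.26, 3.31 and 2.74 scaled counts in WT replicates 1, 2 and 3. Against 3 reads over the WT group as a whole, AT5G52940 averaged 82.9-fold higher in xal1-2, a bound that leaves out the spread between mutant replicates. Its level per length in xal1-2 was 7.04 ± 2.34 RPKM (reads per kilobase of exon, relative to all assigned reads of the library), and 47.5% of the genes tested had a lower scaled count in the mutant.

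AT5G52930, the neighbour of AT5G52940, had 16, 34 and 14 reads in xal1-2 replicates 1, 2 and 3 and 0 in each WT library. Its scaled counts in xal1-2 were 18.26, 30.17 and 12.35, averaging 20.3 ± 9.07 (SD, n = 3), which is 19.6 times the WT limit. The groups did not overlap, and its level per length was 1.6 ± 0.698 RPKM, below that of AT5G52940.

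AT5G54560 had 15, 32 and 24 reads in xal1-2 replicates 1, 2 and 3 and 0 in each WT library. Its scaled counts in xal1-2 were 17.12, 28.39 and 21.18, averaging 22.2 ± 5.71 (SD, n = 3), which is 21.5 times the WT limit. Its replicates varied least of the 4 genes, with a coefficient of variation of 25.7%, and at 1.73 ± 0.42 RPKM it did not differ from AT5G52930 beyond their spread.

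AT4G25930 had 4, 21 and 8 reads in xal1-2 replicates 1, 2 and 3 and 0 in each WT library. Its scaled counts in xal1-2 were 4.57, 18.63 and 7.06, averaging 10.1 ± 7.51 (SD, n = 3), which is 9.76 times the WT limit. Replicate 2 carried most of its reads, the coefficient of variation was 74.4%, and without that replicate the mean was 5.81 and the bound 5.62. The exact Poisson interval for replicate 1 runs from 1.1 to 10.2 reads (95%, counting error only) and reaches below 3.7 reads, the upper end of the same two-sided interval for a WT library with 0 reads. At 1.12 ± 0.821 RPKM it overlapped AT5G52930 and AT5G54560.

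Leaving out WT replicate 3 brings the bounds to 52.2 for AT5G52940, 12.3 for AT5G52930, 13.5 for AT5G54560 and 6.15 for AT4G25930, because the same 3 reads are then set over fewer libraries. All these bounds take the mutant mean as measured, without its spread between replicates.

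All 4 genes were highest in xal1-2 replicate 2. Their summed scaled counts were 97, 193 and 124 in xal1-2 replicates 1, 2 and 3 and 0 in each WT library, and AT5G52940 made up 58.8%, 60.1% and 67.4% of the sum in those mutant libraries. In the same libraries the green tissue markers summed to 1903, 1472 and 2637 scaled counts and the root markers to 3498, 3958 and 3452, so replicate 2 had the lowest green sum and the highest root sum of the mutant libraries. The part of either in the level of the 4 genes was not tested.

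**Figure D2:**
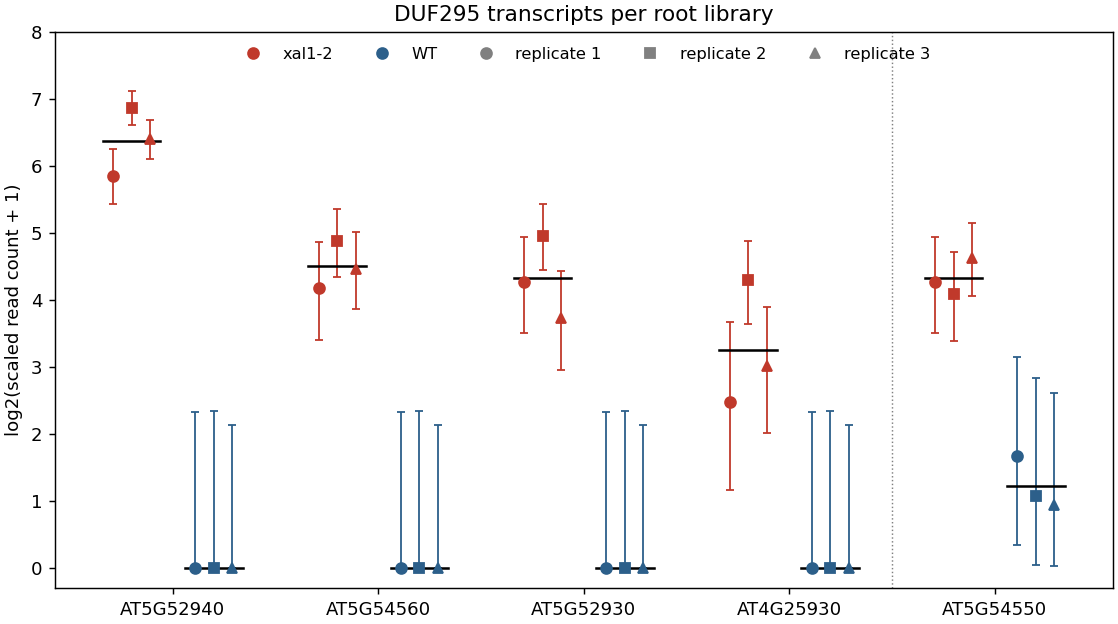
Scaled read counts, on a log2(count + 1) axis, of the 4 genes and of AT5G54550 (right of the dotted line) in each library, xal1-2 in red and WT in blue; symbols mark replicates, vertical bars are exact 95% Poisson intervals of the reads and black lines are group means. The 4 genes have 0 reads in every WT library and reads in every xal1-2 library, while AT5G54550 has 1 or 2 reads in each WT library.

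In the whole table, 53 of the 24441 genes with any reads (0.217%) had 0 reads in all WT libraries and reads in all xal1-2 libraries, and 41 genes showed the mirror pattern. Of the 53, 7 had a mean of at least 5 scaled counts in xal1-2, and the 4 DUF295 genes are among those 7. Another of them, AT1G64795, an uncharacterised gene, had 46.8, 41.7 and 73.24 scaled counts in xal1-2 and 0 in WT. AT1G71691, a lipase gene next to XAL1, had 12.55, 9.76 and 13.24 in xal1-2 and 0 in WT. The 4 genes were picked for this pattern, so nothing is read from their share of it.

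The 4 are the DUF295 genes silent in WT with the most reads in xal1-2, and AT4G25930, with 33 reads in all, was the lowest of them. Just outside this choice, AT5G54450 had 1, 7 and 1 reads in xal1-2 replicates 1, 2 and 3 and none in WT. AT5G53240 had 0, 3 and 1 reads in xal1-2 and none in WT. AT5G54330 and AT1G05550 had 1 read each, in the mutant. AT5G54550 missed the choice through 2, 1 and 1 reads in WT replicates 1, 2 and 3. Conversely, 1 of the 65 other DUF295 genes, AT1G27580, had a read in WT alone, and over all genes 904 had reads in xal1-2 alone and 853 in WT alone.

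AT5G54550 lies 1365 bases before AT5G54560 on the same strand, and its product is 82.7% identical to that of AT5G54560. It had 18.26, 15.97 and 23.83 scaled counts in xal1-2 replicates 1, 2 and 3 and 2.17, 1.1 and 0.91 in WT replicates 1, 2 and 3, so the groups did not overlap. The means were 19.4 ± 4.04 in xal1-2 and 1.4 ± 0.678 in WT (SD, n = 3 each). It rose in the mutant by 3.10 on the log2(scaled count + 1) scale (SE 0.37; adjusted p = 0.00147 in limma). The call was made in each alternative run, with limma adjusted p up to 0.0488. Of all genes tested, 3.93% were called, 1.66% higher and 2.27% lower in xal1-2 (limma, adjusted p under 0.05).

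Of the 69 DUF295 genes in the table, 65 were not among the 4. Of those, 36 had no reads in any library and 29 were tested, of which 1 rose (AT5G54550), 1 fell and 27 were not called. The shares of 3.45% each stand beside 1.66% and 2.27% of all genes, and the median log2 fold change was 0.22, beside -0.00 over all genes tested. Of the 29, 4 had reads in xal1-2 alone and 1 in WT alone, so the direction of these genes was set by how they came to be tested. The gene that fell, AT5G60060, is annotated as an F-box gene and had 0, 1.77 and 3.53 scaled counts in xal1-2 and 18.45, 11.02 and 9.14 in WT (log2 fold change -2.52, SE 0.53, limma adjusted p = 0.0275). This call was lost with a pseudocount of 0.1 (limma adjusted p = 0.0971) and on omitting xal1-2 replicate 1 or 2 (0.129 and 0.0636) or WT replicate 1, 2 or 3 (0.0888, 0.0956 and 0.0512), all from limma. It was also lost with genes at 0 in every library kept (limma adjusted p = 0.221), and edgeR and DESeq2 gave the gene no adjusted p.

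Among the 65, 40 carry F-box text in the annotation and 25 do not. Of the 25 without it, to which the 4 genes belong by annotation, 14 were tested, 1 rose, none fell and the median log2 fold change was 0.33. Of these 14, 4 had reads in xal1-2 alone and were tested only through those reads. Their direction was thus fixed, and nothing about this branch is read from the median. Of the 40 with F-box text, 15 were tested, none rose, 1 fell and the median was -0.05. Of these 15, 1 had reads in WT alone. Of the 13 with the motif before the coding start, 4 had no reads in any library. Of the 9 tested, 1 rose (AT5G54550) and none fell. The family's most abundant members in WT roots are F-box genes. AT2G17030 had 136 ± 10.9 scaled counts in xal1-2 and 117 ± 16.6 in WT, AT1G64840 140 ± 9.77 in xal1-2 and 116 ± 15.1 in WT, and AT1G27540 83.1 ± 4.34 in xal1-2 and 91.5 ± 13.4 in WT (SD, n = 3 each). None of these was called, with log2 fold changes of 0.22, 0.28 and -0.13.

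**Figure D3:**
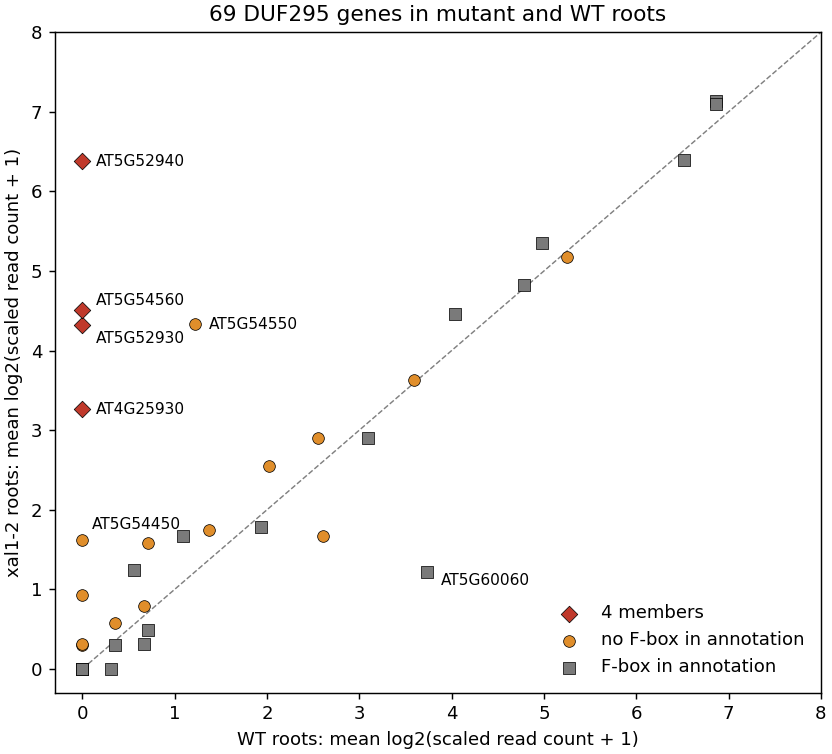
Mean log2(scaled count + 1) of the 69 DUF295 genes in xal1-2 roots (vertical axis) and WT roots (horizontal axis), with the dashed line marking equal levels. The 4 genes (diamonds) lie on the vertical axis at 0 in WT, AT5G54550 lies well above the line, AT5G60060 below it, and most others lie near it.

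The 4 genes differ in how alike their products are. The products of AT5G52940 and AT5G52930 are 75.1% identical over 354 aligned residues, AT5G52940 and AT5G54560 66.4%, and AT5G52930 and AT5G54560 66.1%. AT4G25930 is the distant one, 32.3% to 36.0% identical to the other 3, and its best match by alignment score is its neighbour AT4G25920, at 45.3% identical residues. AT4G25920 also holds the motif before its coding start but had 0 reads in all 6 libraries. The 4 proteins have 362, 359, 360 and 367 residues in AT5G52940, AT5G52930, AT5G54560 and AT4G25930.

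Because the sequences are alike, reads could be shared between genes in principle. Of the 50-base stretches of each transcript, 9 of 1451 in AT5G52940, 9 of 1514 in AT5G52930, 11 of 1534 in AT5G54560 and 0 of 957 in AT4G25930 occur elsewhere in the genome. No other annotated gene overlaps any of the 4. The sources used here do not say how reads that match several genes were counted.

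Relatives of AT5G52940 with at least 60% identical residues over 300 or more aligned residues numbered 11, all on chromosome 5, 2 of them among the 4 genes. Of the other 9, 6 had reads in at least 1 xal1-2 library and 3 in at least 1 WT library, and 5 held the motif before the coding start. The 3 with reads in xal1-2 alone are AT5G53240, AT5G54330 and AT5G54450, with the 1 to 9 reads given earlier. AT5G54320, AT5G55880 and AT5G55890, at 67.2%, 67.6% and 67.6% identical residues, had no reads in any library. Among the 17 other DUF295 genes without F-box text, 9 had reads in an xal1-2 library and 7 in a WT library. The genes among the 9 without reads in WT are AT4G25930, which was chosen for that pattern, and AT1G05550, with 1 read. Of all 32833 genes, 23588 had reads in an xal1-2 library and 23537 in a WT library. Chromosome 5 holds 25 of the 69 DUF295 genes.

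The 4 genes occupy 3 places in the genome (coordinates of TAIR10.1). AT5G52930 (chr5:21470299-21471861) and AT5G52940 (chr5:21472103-21473602) are single-exon genes in tandem, 241 bases apart. AT5G54560 (chr5:22160931-22162513), also of 1 exon, follows AT5G54550, and AT4G25930 (chr4:13168127-13169393) has 3 exons. Besides DUF295 genes, none of the nearest genes on either side was called. AT5G52920, a plastidic pyruvate kinase gene, had 1508 ± 89.2 scaled counts in xal1-2 and 1375 ± 129 in WT. AT5G52950, a LIM domain gene that lies 117 bases past AT5G52940, had 62.6 ± 10.7 in xal1-2 and 55.2 ± 3.9 in WT. AT4G25940, 112 bases past AT4G25930, had 89 ± 14 in xal1-2 and 120 ± 29.1 in WT, a log2 fold change of -0.40 (limma adjusted p = 0.296). AT5G54540 and AT5G52960, with log2 fold changes of -0.07 and -0.11, and AT5G54569 and AT5G54570, at -0.02 and -0.07, were not called. AT4G25950, AT5G07945 and AT4G07505 had no reads in any library.

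Across the 692215 bases from AT5G52930 to AT5G54560, 204 other genes of the table were listed and 142 tested. Of these, 4 rose (2.82%) and none fell, beside 1.66% and 2.27% of all genes. They are AT5G53900, AT5G54100, AT5G54390 and AT5G54550, named here after their values were seen.

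**Figure D4:**
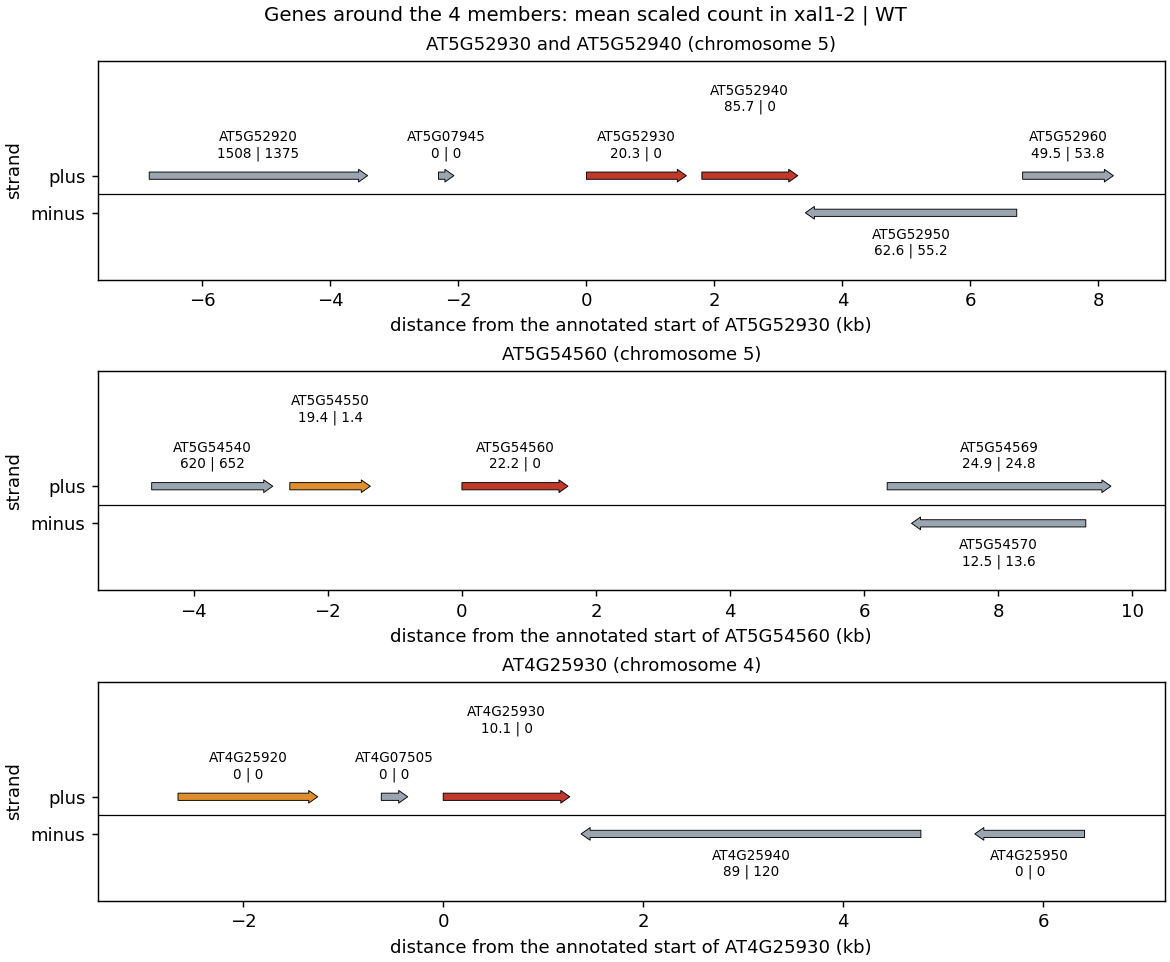
Annotated genes around the 4 genes (red arrows) by strand and by distance in kilobases from the annotated start of the gene named on each axis, with the mean scaled count in xal1-2, then in WT, above or below each arrow; related DUF295 neighbours are orange. Outside the red and orange arrows no gene was called, and AT4G25940 had 89 in xal1-2 and 120 in WT.

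Among the 5 genes whose levels over the 6 libraries were closest to those of AT5G52940, by mean absolute difference of log2(scaled count + 1), were AT1G64795 (0.32), AT2G42065 (0.52), AT4G21490 (0.91) and AT3G58150 (0.99). AT2G42065, a DnaJ domain gene, had 43.37, 58.56 and 47.65 scaled counts in xal1-2 and 0, 0 and 0.91 in WT. It is close to silent in WT, as AT5G52940 is. AT4G21490 (NDB3), an alternative NAD(P)H dehydrogenase gene, had 114.14, 131.31 and 131.48 in xal1-2 and 1.09, 1.1 and 1.83 in WT. AT3G58150, annotated as an OPA3 gene, had 69.62, 77.19 and 75.89 in xal1-2 and 2.17, 1.1 and 3.66 in WT. AT2G42065 and AT3G58150 hold the motif before the coding start, and AT1G64795 and AT4G21490 do not. These genes were chosen for their likeness, so no test is given.

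Among all protein-coding genes with the motif before the coding start, the 4 left out, 459 were tested, of which 28 (6.1%) rose and 11 (2.4%) fell. Of the 22420 without the motif, 361 (1.61%) rose and 541 (2.41%) fell. The 28 include AT5G54550, AT2G42065 and AT3G58150. They also include AT12CYS-2, UGT74E2 and SOT12, markers of mitochondrial retrograde signalling that are counted again in the next paragraph. Of the 13 marker targets listed there, 4 (30.8%) hold the motif. The remaining one of these, HSP23.5, was not called (log2 fold change 0.47, limma adjusted p = 0.478). The markers UPOX, NDB4, MGE1 and ANAC013 rose and hold no match in this window. On omitting WT replicate 2, xal1-2 replicate 1 or xal1-2 replicate 2, the 28 became 17 (3.73%), 11 (2.42%) and 18 (3.98%). Beside them, 62 (0.278%), 23 (0.103%) and 100 (0.449%) of the genes without the motif rose. A match in this window is a property of the sequence, and its part in the levels was not tested.

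Marker genes of mitochondrial retrograde signalling were also followed, as 13 targets and 5 NAC regulators. The list was made with earlier results of these data known, so its shares are a description. Of the 18, 7 rose (38.9%), none fell and 11 were not called, beside 1.66% of all genes called higher and 2.27% called lower. The median log2 fold change of the 18 was 0.31, beside -0.00 over all genes tested. AT12CYS-2 (AT5G09570), a small mitochondrial CHCH protein gene, had 650.58, 813.61 and 571.82 scaled counts in xal1-2 and 6.51, 9.92 and 10.05 in WT (log2 fold change 6.12, SE 0.21, limma adjusted p = 7.97e-08). NDB4, another alternative NAD(P)H dehydrogenase gene, had 179.19, 286.58 and 166.78 in xal1-2 and 1.09, 2.2 and 3.66 in WT (6.03, SE 0.34, limma adjusted p = 5.29e-06). In both genes every xal1-2 library lay above every WT library. UPOX rose by a log2 fold change of 3.97, UGT74E2 by 1.63, SOT12 by 0.92 and MGE1 by 0.90. WT replicate 3 was the highest WT library for UPOX, with 102.36 scaled counts beside 21.71 and 16.53 in WT replicates 1 and 2, and without it the log2 fold change of UPOX was 4.76.

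Of the regulators, ANAC013 rose, at 315.02, 358.45 and 391.8 scaled counts in xal1-2 and 120.5, 147.66 and 188.26 in WT (log2 fold change 1.24, SE 0.16, limma adjusted p = 0.00249). ANAC017 was at -0.15, ANAC053 at -0.16 and ANAC078 at -0.18, none called. ANAC016 was at -0.04, not called, and turned to 0.02 with library totals and to 0.06 without WT replicate 2 or without xal1-2 replicate 1. AOX1A, the alternative oxidase used as the standard reporter of this pathway, had 980 ± 86.9 scaled counts in xal1-2 and 793 ± 113 in WT (SD, n = 3 each) and was not called, with a log2 fold change of 0.31 (limma adjusted p = 0.181). Without xal1-2 replicate 1, 2 of the 18 were called, AT12CYS-2 and NDB4. Limma adjusted p-values without that library were 0.0692 for UPOX, 0.0836 for UGT74E2, 0.0727 for SOT12, 0.0679 for MGE1 and 0.0503 for ANAC013. SOT12 was also not called by limma without WT replicate 1 or 2 or xal1-2 replicate 2 or 3 (adjusted p from 0.113 to 0.153), nor with a pseudocount of 0.1 (0.0517).

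**Figure D5:**
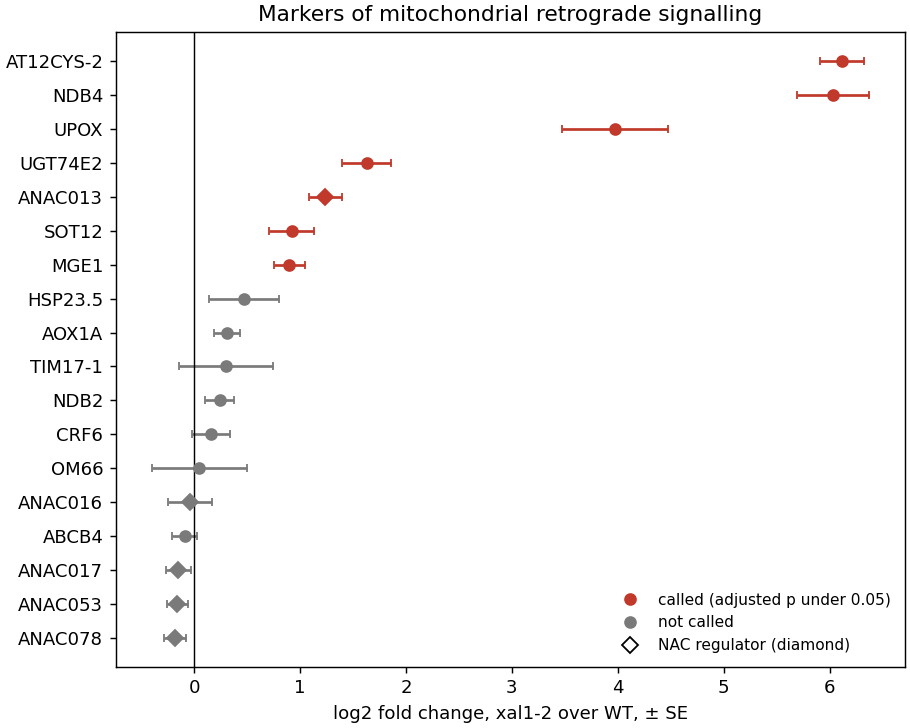
Log2 fold change, xal1-2 over WT, with its standard error, of the 18 markers of mitochondrial retrograde signalling (circles targets, diamonds NAC regulators; red called by limma at adjusted p under 0.05). AT12CYS-2 and NDB4 stand at 6.12 and 6.03, the 5 other called genes between 0.90 and 3.97, and AOX1A, at 0.31, is not called.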

How the data were processed

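RNA of 6 Arabidopsis root samples was sequenced as stranded mRNA libraries, per the labels' protocols. The submitters' processing notes name TAIR10 as the build and Subread 2.0.1, DESeq2, FastQC 0.11.9 and Trimmomatic 0.39 as tools, without settings. The deposited values are a signal, read counts that the authors divided by 1 size factor per library: within 0.001 of a read, 100.0% of values above 0 gave whole reads when multiplied back. The deposited table also holds the authors' log2 fold changes, a score (their test statistic) and p-values, which were not used here.

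Here limma 3.58.1 in R 4.3.3 was fitted with an intensity trend and a genotype term to log2(scaled count + 1) of the 24441 genes with any reads, with Benjamini-Hochberg adjustment over all of them and a call at adjusted p under 0.05. edgeR 4.0.16 and DESeq2 1.42.0 on the recovered reads, and the other alternatives, are in the closing section. The fitting code was tested on simulated data. Each library counted as a sample because the labels name biological replicates. No 2 libraries of a genotype agreed within sampling noise, with a chi-square per degree of freedom of at least 4.09. That spread alone cannot tell biological replicates from repeated libraries. Intervals and floors cover counting error only. Levels per length use annotated exon bases. Protein identities come from translated coding sequences of TAIR10.1 and from BLAST+ 2.17.0 and Biopython 1.88, and identifiers of 32548 of 32833 genes matched that annotation. Coordinates are those of TAIR10.1. DUF295 genes were taken by product name. The 4 genes and all lists were chosen with earlier results of these data known. The text names the 4 genes, XAL1, the nearest genes on either side, the called and the 3 most abundant DUF295 genes, the called retrograde markers and the NAC regulators, the 5 profiles nearest to AT5G52940 (1 of them is not reported here), and the 5 most abundant genes silent in WT.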

Additional observations from a re-analysis of the deposited data

How the results depend on the processing

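Depth limits the values: the 4 genes rest on 33 to 276 reads in xal1-2, and 0 reads in WT bounds their level without showing absence. Where a floor of 3 reads is taken in each WT library, the bounds were 27.6 for AT5G52940, 6.53 for AT5G52930, 7.17 for AT5G54560 and 3.25 for AT4G25930. Leaving out 1 library at a time, they ran from 52.2 to 96.8 for AT5G52940, 12.3 to 23.4 for AT5G52930, 13.5 to 24 for AT5G54560 and 5.62 to 12.4 for AT4G25930. Library totals or TMM factors moved no mean of the 4 by more than the spread between replicates.

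Keeping the genes at 0 in every library, 154 genes were called (84 higher, 70 lower), against 961 (405 higher, 556 lower); the counts were 2 retrograde markers, 1 DUF295 gene and 6 motif-bearing genes that rose, against 7, 2 and 28. The added genes at 0 enter the variance trend and the adjustment. Leaving out 1 library, limma called 81 to 871 genes, 38 to 372 higher and 43 to 499 lower, with 2 to 7 markers, 1 to 2 DUF295 genes and 11 to 33 motif-bearing genes; fewer samples were then fitted. The DUF295 count was also 1 with a pseudocount of 0.1, in edgeR, in DESeq2 and with the family taken by blastp. The motif count was 18 of 365 tested (4.93%) with the window of 250 bases before the gene start, against 28 of 459 (6.1%). This window and the family by product or own description were added after the data were seen. With library totals 570 genes were higher and 401 lower, and the median log2 fold change of all genes was 0.053. ANAC016 turned to 0.02 with library totals and, leaving out 1 library at a time, ran from -0.18 to 0.06. The cause of other changes was not tested.

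With the replicate number as a block, 839 genes were called, 309 higher and 530 lower, with 7 markers, 2 DUF295 genes and 28 motif-bearing genes. The numbers share no stated source: deviations of same-numbered libraries correlated at 0.02, 0.25 and 0.03, so the samples were not treated as pairs, and xal1-2 replicate 1 correlated best with WT replicate 3 (0.14).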
